A study of Mus musculus with 30 samples.

Results

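A set of 9 genes, all of them known as transcripts of oligodendrocytes, was followed in astrocytes sorted from mouse brain: Mbp, Mobp, Mog, Mag, Cldn11, Opalin, Ermn, Cnp and Aspa. They were taken by name, and each was read from the probe set that carried its symbol alone and had the highest mean over the 30 arrays. They are 9 of 18193 genes measured in that way, and all 9 were among the 15726 genes that passed a filter on low values (a log2 intensity of at least 5 on at least 3 arrays). The study profiled astrocytes after an experimental stroke and after systemic inflammation on Affymetrix mouse expression arrays, 1 array per sample.

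Every mouse was a young adult male of the Tg(Aldh1l1-eGFP) OFC789Gsat line on a Swiss Webster background, in which the Aldh1l1 promoter drives green fluorescent protein in astrocytes, so the controls carried the reporter as well. Stroke was made by transient middle cerebral artery occlusion (MCAO) of 1 hour followed by reperfusion, and cells were collected 1 day (5 arrays), 3 days (3 arrays) or 7 days (3 arrays) later. Sham surgery was the control at 1 day (4 arrays), 3 days (3 arrays) and 7 days (3 arrays). Inflammation was made by lipopolysaccharide (LPS) at 5 mg/kg into the peritoneum, with cells collected after 1 day (5 arrays), and saline was its control (4 arrays). Brains were dissociated with papain and cells were sorted on their fluorescence. About 20 ng of RNA per sample went through 2 rounds of amplification.

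Oligodendrocytes wrap axons of the central nervous system in myelin, a stack of membrane that is rich in lipid and in a few abundant proteins. Their messenger RNA makes up much of the RNA of white matter, and some of it, such as that of Mbp, is carried out into the myelin sheath itself. Astrocytes of the adult brain are not known as a main source of these transcripts. In a sorted sample measured in bulk, fewer cells of a type and less RNA per cell cannot be told apart.

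Promoter windows of 250 bases before the annotated start were taken from RefSeq (GRCm38.p6), which matched 8 of the 9 members, all but Mbp, with 10 windows (Mag had 3). They were searched on both strands for ACAAAG, a core motif of SOX factors such as SOX10, for CTGGCAC, a motif of the myelin regulatory factor MYRF, and for TATAAA. Windows are shown for Cnp and Aspa, which fell after MCAO, and for Mobp, whose level differed most between the control groups. Capitals mark matches on either strand.
Cnp (chr11:100574689-100574938, plus strand): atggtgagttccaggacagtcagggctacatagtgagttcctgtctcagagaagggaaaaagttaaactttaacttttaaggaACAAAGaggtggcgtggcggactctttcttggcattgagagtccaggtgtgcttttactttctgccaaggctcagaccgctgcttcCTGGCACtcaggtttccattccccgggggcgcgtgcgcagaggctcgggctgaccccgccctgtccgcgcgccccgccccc
Aspa (chr11:73324638-73324887, minus strand): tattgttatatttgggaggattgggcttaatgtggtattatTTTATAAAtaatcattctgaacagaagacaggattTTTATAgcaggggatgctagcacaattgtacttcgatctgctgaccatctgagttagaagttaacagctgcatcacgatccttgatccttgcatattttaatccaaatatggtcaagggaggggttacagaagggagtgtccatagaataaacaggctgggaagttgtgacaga
Mobp (chr9:120149492-120149741, plus strand): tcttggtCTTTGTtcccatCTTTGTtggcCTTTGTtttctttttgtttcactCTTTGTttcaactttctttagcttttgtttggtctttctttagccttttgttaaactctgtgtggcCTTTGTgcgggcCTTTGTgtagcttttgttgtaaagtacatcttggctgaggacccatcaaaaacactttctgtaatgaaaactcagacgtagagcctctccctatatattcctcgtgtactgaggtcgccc
The Cnp window held 1 SOX match at -167 and 1 MYRF match at -81, counted from the start. The Aspa window held neither, and 3 TATA matches, of which those at -209 and -207 overlap. The Mobp window held 6 SOX matches between -243 and -120, all of them on the reverse strand as CTTTGT. Of the 10 windows, 5 held a SOX match, against 16.5% of all 32851 windows in the table, 3 held a MYRF match (4.2% of all) and 1 held a TATA match (12.4% of all). Of the 5 windows with a SOX match, 2 are those of Mag that overlap in sequence, and both hold the same SOX site. These 2 windows also hold the same MYRF site, so that the 3 windows with a MYRF match hold 2 separate sites.

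Median intensities of the arrays lay between 68 and 73, apart from 94 on LPS array 5. Aldh1l1, the astrocyte gene whose promoter drives the reporter, lay between log2 12.29 and 13.71 on every array but LPS array 5, which read 11.13. Arrays are labelled as biological replicates, but no label says that each came from its own mouse, and the p-values therefore reflect only how these samples spread, which may be technical. Differences are log2 folds from a limma model over all 8 groups, with the standard error (SE), and genes count as called where the p, adjusted by Benjamini-Hochberg over 15726 genes, was under 0.05. Levels are log2 intensities, which depend on the probe set and are compared only within a gene.

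Mbp and Mobp encode structural proteins of compact myelin. Mbp encodes myelin basic protein, which holds the cytoplasmic faces of the membrane together. It read 12.37, 12.77, 12.90, 13.60 and 13.10 on the 1-day MCAO arrays, against 12.63, 13.12, 13.72 and 13.89 on the 1-day sham arrays. At 3 days it read 12.69, 11.86 and 12.81 after MCAO and 11.46, 10.81 and 13.30 after sham surgery. MCAO and sham arrays overlapped on both days, and sham array 3 stood well above the other sham arrays of 3 days. At 7 days Mbp read 11.77, 11.49 and 12.05 after MCAO and 11.65, 10.62 and 11.36 after sham surgery. It read 11.41, 12.05, 12.12, 10.08 and 10.45 after LPS, against 11.58, 11.45, 10.63 and 10.54 after saline. All arrays of 1 day after surgery, MCAO and sham alike, lay above all LPS and saline arrays.

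Mobp encodes myelin-associated oligodendrocyte basic protein, a second cytoplasmic protein of compact myelin. It read 10.37, 10.57, 11.19, 11.61 and 11.01 on the 1-day MCAO arrays, against 10.49, 11.19, 11.85 and 12.16 on the 1-day sham arrays. At 3 days it read 8.82, 8.53 and 8.68 after MCAO and 7.89, 7.13 and 9.78 after sham surgery. At 7 days it read 7.17, 7.09 and 7.48 after MCAO and 7.48, 6.75 and 7.22 after sham surgery. The arrays of 1 day after surgery stood apart from all others, whichever surgery the mice had had. After LPS Mobp read 9.0, 9.47, 8.90, 7.48 and 7.52, against 8.32, 8.08, 7.06 and 7.25 after saline. LPS arrays 1, 2 and 3 lay above every saline array and LPS arrays 4 and 5 among them, and the saline arrays split likewise, with arrays 1 and 2 above arrays 3 and 4.

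Mog and Mag encode immunoglobulin-like proteins of the myelin surface: Mog lies on the outermost layer and Mag on the membrane next to the axon. Mog read 4.64, 4.81, 7.04, 7.67 and 6.85 on the 1-day MCAO arrays, against 4.81, 7.18, 8.21 and 7.58 on the 1-day sham arrays. The same group thus held arrays below the filter of log2 5 and arrays well above it: MCAO arrays 1 and 2 and sham array 1 were low and the other 6 were high. At 3 days Mog read 8.15, 5.78 and 5.93 after MCAO and 4.17, 4.25 and 6.86 after sham surgery, and at 7 days 5.88, 4.39 and 4.58 after MCAO and 6.25, 4.39 and 5.55 after sham surgery. After LPS it read 4.91, 4.95, 7.68, 4.32 and 4.25, against 4.64, 5.98, 4.95 and 4.09 after saline. LPS array 3 stood above all other LPS and saline arrays.

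Mag read 7.53, 7.52, 8.61, 9.10 and 8.63 on the 1-day MCAO arrays, against 7.02, 8.30, 9.17 and 8.86 on the 1-day sham arrays. At 3 days it read 9.69, 7.46 and 7.54 after MCAO and 6.07, 6.0 and 8.19 after sham surgery. MCAO array 1 was the highest of the 30 arrays, and the groups of 3 days overlapped only through sham array 3. At 7 days Mag read 7.10, 6.38 and 6.48 after MCAO and 7.53, 6.04 and 7.29 after sham surgery. It read 7.19, 6.92, 7.17, 6.25 and 5.93 after LPS, against 6.36, 6.82, 6.99 and 5.78 after saline. Each of these groups overlapped its control.

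Cldn11 encodes the claudin that forms the tight junctions between layers of myelin. It read 7.49, 7.25, 9.11, 9.77 and 8.67 on the 1-day MCAO arrays, against 5.70, 8.36, 9.64 and 9.17 on the 1-day sham arrays. At 3 days it read 9.86, 7.44 and 8.08 after MCAO and 5.36, 5.58 and 8.66 after sham surgery, and at 7 days 7.23, 6.09 and 6.17 after MCAO and 7.26, 5.32 and 6.63 after sham surgery. Its spread was the widest of the 9 members, 5.95 on the log2 scale between the lowest and the highest array. After LPS Cldn11 read 8.85, 7.86, 8.69, 5.61 and 4.52, against 6.07, 6.25, 5.64 and 3.91 after saline. As with Mobp, LPS arrays 1, 2 and 3 lay above every saline array and arrays 4 and 5 did not.

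Ermn encodes ermin, a protein of the oligodendrocyte cytoskeleton, and Opalin a transmembrane protein of oligodendrocytes. Ermn read 7.73, 6.74, 9.59, 9.70 and 8.63 on the 1-day MCAO arrays, against 6.43, 8.46, 10.19 and 9.34 on the 1-day sham arrays. At 3 days it read 9.32, 6.49 and 5.70 after MCAO and 4.95, 5.21 and 7.56 after sham surgery. These groups overlapped on both days. It read 6.87, 5.32 and 5.46 at 7 days after MCAO and 7.02, 5.25 and 6.71 after sham surgery. After LPS Ermn read 7.37, 6.23, 8.73, 6.71 and 5.29, against 5.75, 5.73, 6.82 and 4.75 after saline, with LPS arrays 1 and 3 above every saline array.

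For Opalin the 30 arrays spanned 2.10. It read 6.49, 6.57, 7.29, 7.69 and 6.75 on the 1-day MCAO arrays, against 6.07, 6.93, 7.28 and 7.07 on the 1-day sham arrays. At 3 days it read 6.91, 6.43 and 6.64 after MCAO and 5.58, 5.83 and 7.22 after sham surgery, and at 7 days 6.39, 5.86 and 6.17 after MCAO and 6.88, 5.78 and 6.77 after sham surgery. After LPS it read 6.34, 6.25, 7.58, 6.23 and 6.63, against 6.0, 6.82, 5.78 and 6.04 after saline. Each group overlapped its control.

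Cnp and Aspa encode enzymes. The product of Cnp is a phosphodiesterase of uncompacted myelin, and aspartoacylase, the product of Aspa, splits N-acetylaspartate and so frees acetate that oligodendrocytes can use for lipid synthesis. Cnp read 12.37, 12.33, 13.16, 13.30 and 13.21 on the 1-day MCAO arrays, against 13.08, 13.52, 13.98 and 13.69 on the 1-day sham arrays. MCAO arrays 1 and 2 were the lowest of the 30 arrays, and the groups overlapped through sham array 1. At 3 days Cnp read 13.50, 13.55 and 13.47 after MCAO and 13.10, 13 and 13.56 after sham surgery, and at 7 days 13.34, 13.36 and 13.26 after MCAO and 13.35, 13.21 and 13.19 after sham surgery. After LPS it read 13.13, 13.59, 13.50, 13.07 and 13.53, against 13.34, 13.62, 13.28 and 13.30 after saline. On the chosen probe set of Cnp the 30 arrays spanned 1.65 on the log2 scale, the narrowest span of the 9 members.

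Aspa read 7.07, 7.64, 8.54, 8.41 and 8.74 on the 1-day MCAO arrays, against 8.91, 9.45, 9.14 and 9.50 on the 1-day sham arrays. Every MCAO array of 1 day lay below every sham array of 1 day. At 3 days Aspa read 8.87, 8.28 and 8.55 after MCAO and 8.68, 8.58 and 8.67 after sham surgery, and at 7 days 8.33, 8.15 and 8.46 after MCAO and 8.66, 8.44 and 8.66 after sham surgery. After LPS it read 8.39, 8.36, 9.93, 8.36 and 7.88, against 8.65, 9.18, 8.81 and 8.70 after saline. LPS array 3 was the highest of the 30 arrays, while the other LPS arrays lay below all saline arrays.

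**Figure D1:**
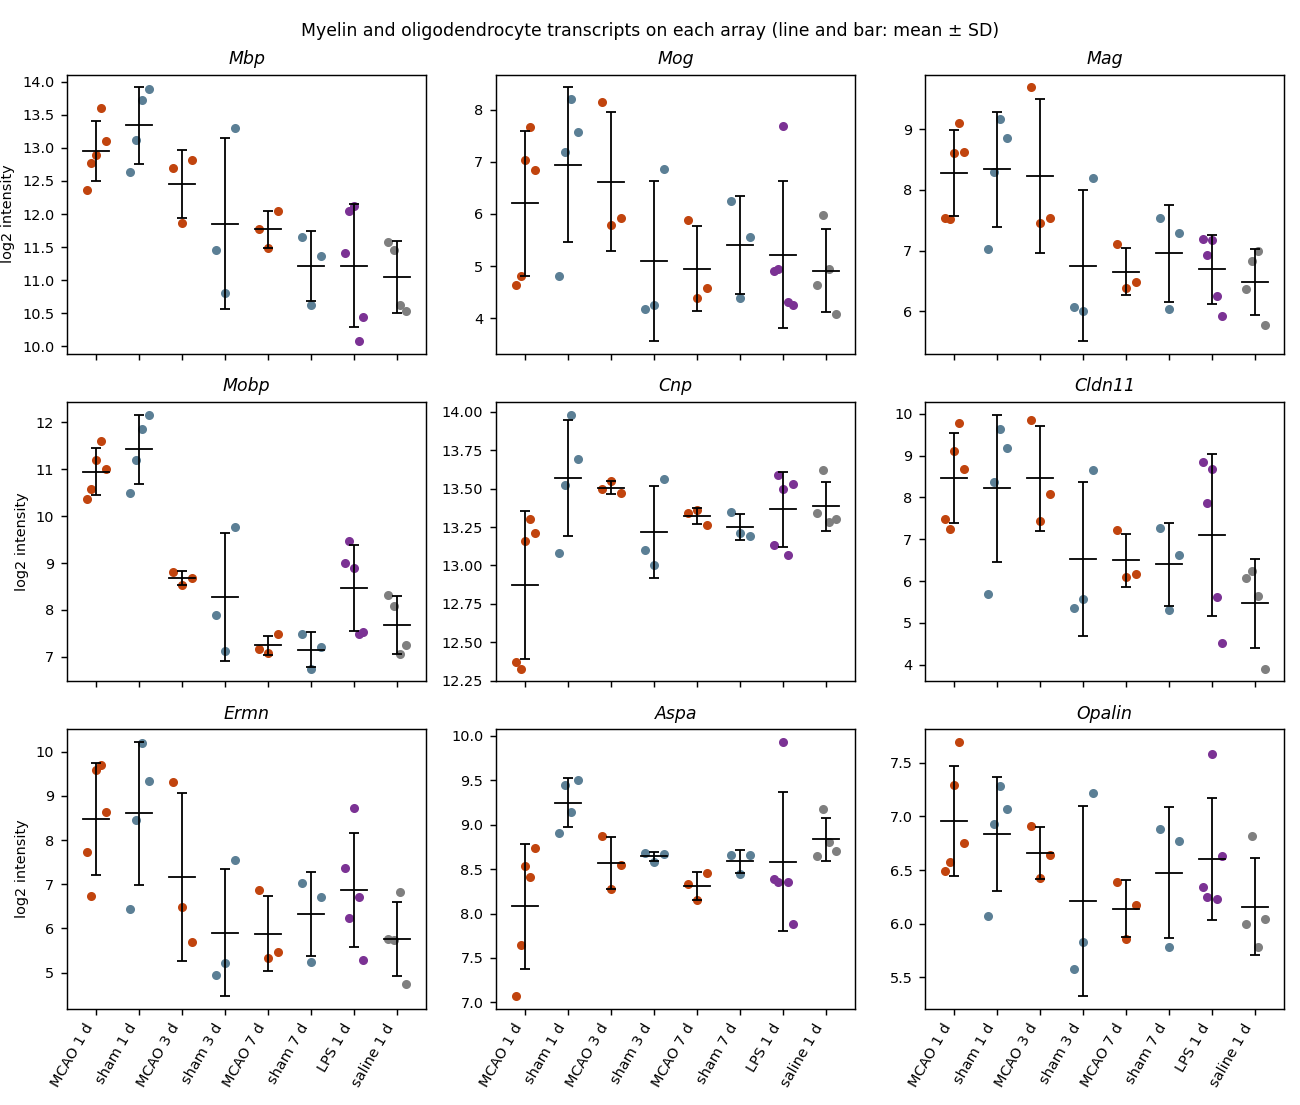
Log2 intensity of the 9 members on each of the 30 arrays (points), with the mean and SD of each group (black line and bar) and groups along the x axis. The 1-day surgery arrays of Mobp (10.37 to 12.16) lie above all others, and those of Aspa separate MCAO (at most 8.74) from sham (at least 8.91).

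MCAO at 1 day was set against sham surgery to ask how these transcripts differed in the first day after a stroke. Both enzyme genes fell, and no structural or surface member passed the test. Aspa averaged 8.08 ± 0.70 after MCAO (SD, n = 5) and 9.25 ± 0.28 after sham surgery (SD, n = 4), a log2 fold of -1.17 ± 0.31 (SE) with limma's adjusted p = 0.0105. Cnp averaged 12.87 ± 0.48 after MCAO (SD, n = 5) and 13.57 ± 0.38 after sham surgery (SD, n = 4), a log2 fold of -0.69 ± 0.20 (SE) with limma's adjusted p = 0.0195. So 2 of 9 members fell, where 6.17% of all genes tested did, and 1 of 9 was lower without overlap of the arrays, where 15.2% of all genes were. The median log2 fold of the members was -0.39, against -0.05 over all genes.

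Markers of other cells and of astrocytes were set beside these falls. Of 12 endothelial markers 1 was higher after MCAO than after sham surgery (Vwf, 1.57, with overlapping arrays). Of 13 microglial and macrophage markers 1 was (Cd68, 1.98) and of 14 neuronal markers 0 (limma), where 6.49% of all genes were. At an unadjusted p under 0.05, 1 endothelial marker was higher and 2 were lower. By the same measure 2 microglial and macrophage markers were higher, and among neuronal markers 1 was higher and 1 lower. The summed microglial and macrophage intensity ran from 1133 to 1971 after MCAO and from 1046 to 1854 after sham surgery, and the neuronal and endothelial sums, given with the control groups, overlapped as well. Of 14 astrocyte markers the intermediate filament gene Gfap was higher (1.69), and the connexin gene Gjb6 (-0.63) and the glutamate transporter gene Slc1a3 (-0.52) were lower. The arrays of 9 of these 14 were lower without overlap, where 15.2% of all genes were. The summed intensity of the 14 ran from 166481 to 186383 after MCAO and from 195532 to 206705 after sham surgery, without overlap, and Aldh1l1 read 12.31 to 12.62 after MCAO and 12.71 to 12.85 after sham surgery. The part of these shifts in the falls of Aspa and Cnp was not tested.

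The other 7 members had folds between -0.74 ± 0.78 (SE, Mog) and 0.24 ± 0.88 (SE, Cldn11) with adjusted p of at least 0.647. Their 95% intervals were wide, from -2.34 to 0.86 for Mog, -1.39 to 0.44 for Mobp and -1.29 to 0.50 for Mbp. The 2 other Cnp probe sets gave log2 folds of -0.83 and -0.68, close to that of the chosen one, whose name marks it as possibly shared with other transcripts. Aspa kept its call under every alternative run, but Cnp lost it without probe sets so marked (adjusted p = 0.0537), after quantile normalisation (-0.52, adjusted p = 0.0834), with the 9 arrays fitted alone (0.0599), and without MCAO array 1, MCAO array 2, sham array 3 or sham array 4 (adjusted p up to 0.0903).

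**Figure D2:**
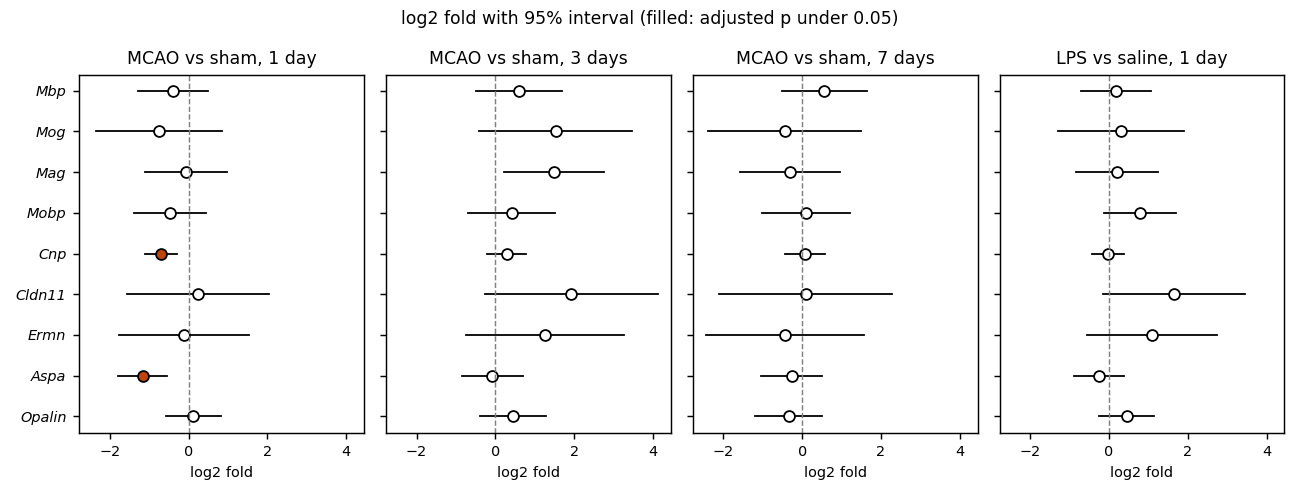
Log2 fold of each member (points) with its 95% interval (lines) for MCAO over sham at 1, 3 and 7 days and LPS over saline at 1 day, filled where the adjusted p was under 0.05. The filled points are Aspa (-1.17) and Cnp (-0.69) at 1 day.

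Numbers in the array descriptions differ from the replicate numbers of the titles. They are shared by 4 MCAO arrays of 1 day and the 4 sham arrays, and the labels do not say what they mark. Over all genes, deviations from group means correlated at r = 0.23, 0.19, 0.50 and 0.16 for the numbers 2, 3, 4 and 5. The arrays numbered 2 and 4 were each other's best match, and those numbered 3 and 5 were not. The numbers were taken as pairs from this check on the same data. MCAO array 1 has no partner and adds nothing to the fold under a block. With these numbers as a replicate block, the fold was -0.91 ± 0.12 (SE) for Aspa (adjusted p = 0.000453) and -0.57 ± 0.12 (SE) for Cnp (adjusted p = 0.00474). Within the pairs numbered 2, 3, 4 and 5, MCAO minus sham was -1.26, -0.91, -0.72 and -0.76 for Aspa. For Cnp it was -0.75, -0.36, -0.68 and -0.48. Both were lower after MCAO in 4 of 4 pairs. For Aspa any pairing would give this count, since its arrays of 1 day did not overlap, so it adds nothing. Cldn11 differed by 1.55, 0.75, 0.14 and -0.50 and Mag by 0.50, 0.31, -0.08 and -0.23, so their pairs went both ways. The pair numbered 2 was the lowest of the 4 pairs in all 9 members, after MCAO and after sham surgery alike. Mog read 4.81 after MCAO and 4.81 after sham surgery in this pair, and at least 6.85 after MCAO and 7.18 after sham surgery in the others.

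**Figure D3:**
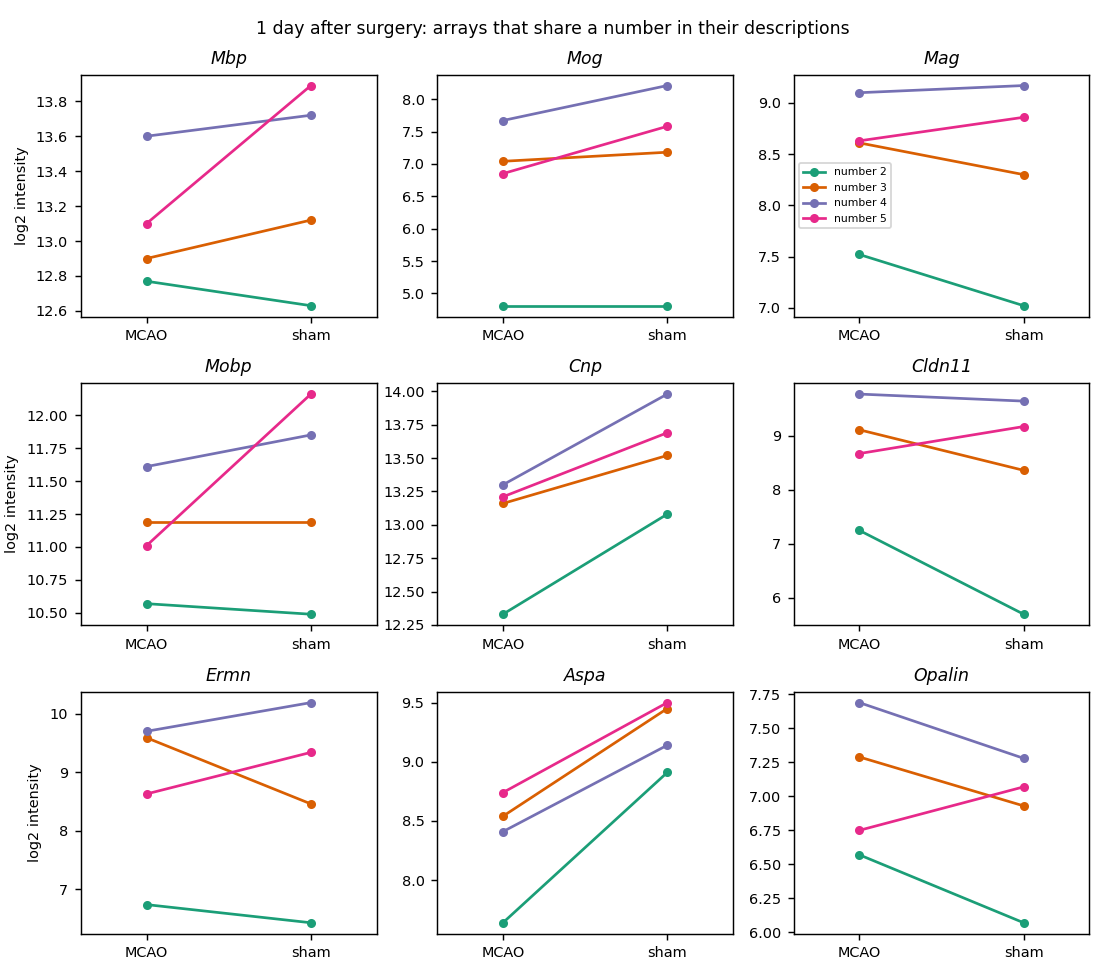
Log2 intensity of the 9 members at 1 day on MCAO arrays (left) and sham arrays (right), joined by a line where the descriptions give the same number, 2 to 5. All 4 lines of Aspa and Cnp run higher at sham, and the pair numbered 2 is the lowest at both ends in all 9 panels.

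At 3 days, 0 of 9 members were called by limma, where 0.674% of all genes were, and 1 of 9 had an unadjusted p under 0.05. The arrays of 0 members were free of overlap, where 12.7% of all genes were. Mag averaged 8.23 ± 1.27 after MCAO and 6.75 ± 1.25 after sham surgery (SD, n = 3 each), a log2 fold of 1.48 ± 0.62 (SE) with adjusted p = 0.390. Cldn11 averaged 8.46 ± 1.25 after MCAO and 6.53 ± 1.84 after sham surgery (SD, n = 3 each), a log2 fold of 1.93 ± 1.07 (SE, adjusted p = 0.645). Mog had a log2 fold of 1.53 ± 0.95 (SE, adjusted p = 0.731) and Ermn of 1.26 ± 0.98 (SE, adjusted p = 0.858). The remaining 5 lay between -0.08 (Aspa) and 0.60 (Mbp). The median was 0.60, against 0.01 over all genes.

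Sham array 3 was the highest sham array of its day in 8 of 9 members, and MCAO array 1 the highest MCAO array in 7 of 9. Without array 3 of both 3-day groups, Mag was called (2.54 ± 0.68 SE, adjusted p = 0.0318), and so it was with arrays weighted by their fit (1.99, adjusted p = 0.0498). Without MCAO array 1 the folds were smaller: Mag had 0.75 (adjusted p = 0.952), Cldn11 1.23 (0.974), Mog 0.76 (0.997) and Ermn 0.19 (0.997). With 1 array of either group left out, the fold of Mbp lay between 0.07 and 1.32 and that of Mobp between -0.16 and 1.17. For Mobp the chosen probe set gave 0.41 and those next in mean level gave 1.36 and 1.71.

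At 7 days, 0 of 9 members were called by limma, where 0.0254% of all genes were, and 0 had an unadjusted p under 0.05. No member was free of overlap, where 16.3% of all genes were. Folds lay between -0.44 (Mog and Ermn) and 0.57 ± 0.53 (SE, Mbp), with a median of -0.27 against -0.01 over all genes and adjusted p of 1 throughout. Cnp had the narrowest interval, -0.43 to 0.57, and Cldn11 the widest, -2.10 to 2.29. Mobp averaged 7.24 ± 0.20 after MCAO and 7.15 ± 0.37 after sham surgery (SD, n = 3 each).

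LPS was set against saline at 1 day as the study's model of neuroinflammation. Of the 9 members 0 were called by limma, where 3.11% of all genes were, and 0 had an unadjusted p under 0.05. The arrays of 0 members were free of overlap, where 2.75% of all genes were. Cldn11 averaged 7.11 ± 1.94 after LPS (SD, n = 5) and 5.47 ± 1.07 after saline (SD, n = 4), a log2 fold of 1.64 ± 0.88 (SE, adjusted p = 0.363). Ermn had a log2 fold of 1.10 ± 0.80 (SE, adjusted p = 0.535) and Mobp of 0.80 ± 0.45 (SE, adjusted p = 0.393). The other 6 lay between -0.25 (Aspa) and 0.44 (Opalin). Without LPS array 5, the array with the raised median, Cldn11 had a fold of 2.29 (adjusted p = 0.144), Mobp of 1.04 (0.226) and Aspa of -0.07 (0.941), and 0 of 9 members were called. Without LPS array 3, on which Mog and Aspa were highest, Aspa had a fold of -0.59 (adjusted p = 0.159), Mog of -0.31 (0.829), Mobp of 0.69 (0.383) and Cldn11 of 1.25 (0.414).

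The description numbers of the LPS and saline arrays fall into 2 ranges, and the labels do not say what the numbers mark. LPS arrays 1, 2 and 3 and saline arrays 1 and 2 are numbered 3 to 6, and LPS arrays 4 and 5 and saline arrays 3 and 4 are numbered 13 to 16. In both groups Mobp was higher in level on every array of the low range: 8.90 to 9.47 after LPS and 8.08 to 8.32 after saline there, and 7.48 to 7.52 after LPS and 7.06 to 7.25 after saline in the high range. Within the ranges LPS minus saline was 0.92 and 0.34 for Mobp, 2.31 and 0.29 for Cldn11, and 0.34 and -0.32 for Mbp. With the range as a term of the model, an alternative added after the values had been seen, the fold was 0.66 ± 0.37 (SE, adjusted p = 0.302) for Mobp and 1.39 ± 0.76 (SE, adjusted p = 0.289) for Cldn11, and 0 of 9 members were called.

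Tested directly, the effects of MCAO and LPS at 1 day differed in 0 of 9 members (limma), where 1.39% of all genes did. Aspa and Cnp, with differences of -0.92 ± 0.43 (SE, adjusted p = 0.370) and -0.67 ± 0.28 (SE, adjusted p = 0.278), had unadjusted p under 0.05. With array weights Mobp was called (-1.93, adjusted p = 0.0323), against -1.27 ± 0.63 (SE, adjusted p = 0.406) without them. The MCAO effect at 3 days differed from that at 1 day in 0 members, where 0.00636% of all genes differed. Here Cnp (0.98 ± 0.31 SE, adjusted p = 0.488) and Aspa (1.09 ± 0.48 SE, adjusted p = 0.775) had unadjusted p under 0.05. Between 7 days and 1 day 0 members were called, where 0.356% of all genes were, and Cnp (0.76 ± 0.31 SE, adjusted p = 0.429) was the 1 with an unadjusted p under 0.05. Between 7 and 3 days 0 members were called and 0 had an unadjusted p under 0.05, where 0.0% of all genes were called. So the fall of Aspa and Cnp at 1 day was not shown to differ from their values at later days or after LPS.

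The largest folds of these 9 genes stood between control groups, a comparison added after the values had been seen. Between sham surgery and saline at 1 day, 4 of 9 members were higher after sham surgery, where 2.92% of all genes were, and 3 of them, Mobp, Mbp and Mag, were free of overlap, where 8.29% of all genes were in that direction. Mobp averaged 11.42 ± 0.74 after sham surgery and 7.67 ± 0.62 after saline (SD, n = 4 each), a log2 fold of 3.75 ± 0.47 (SE, limma's adjusted p = 5.01e-05), or 13.4-fold. Mbp was higher by 2.29 ± 0.46 (SE, adjusted p = 0.00534), Ermn by 2.84 ± 0.85 (SE, 0.0486) and Mag by 1.85 ± 0.54 (SE, 0.0426). Cldn11 had a fold of 2.75 ± 0.93 (SE, adjusted p = 0.0795) and Mog of 2.03 ± 0.82 (SE, adjusted p = 0.156). Cnp (0.18) and Aspa (0.41) had the smallest folds on their chosen probe sets. The other Cnp probe sets gave 0.54 ± 0.30 and 1.52 ± 0.42 (SE), so the small fold of Cnp depends on the probe set. The calls of Mag and Ermn each ended in 6 of 8 cases when 1 array was left out (adjusted p up to 0.187), all but those of sham array 1 and saline array 3. Cldn11 was called without sham array 1 (3.59, adjusted p = 0.0323).

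Among sham arrays, Mobp fell by 3.16 ± 0.51 (SE, adjusted p = 0.00147) at 3 days against 1 day, the 1 member called in either direction, where 3.55% of all genes were lower. Mbp had a fold of -1.49 on its chosen probe set, and its other probe sets ran from -2.41 to -0.17. With the mean of its probe sets Mbp was called (-1.45, limma's adjusted p = 0.0122). Mobp and Aspa were lower without overlap at 3 days, where 17.2% of all genes were. Without 3-day sham array 3, Mbp (-2.21, adjusted p = 0.015) and Mag (-2.31, adjusted p = 0.0335) were called too, and without 1-day sham array 1, Mag (-2.03, 0.0467) and Ermn (-3.42, 0.0341). At 7 days against 1 day Mobp fell by 4.27 ± 0.51 (SE, adjusted p = 3.35e-05) and Mbp by 2.14 ± 0.50 (SE, adjusted p = 0.0103), so 2 of 9 were called lower, where 4.36% of all genes were. The call of Mbp ended without 7-day sham array 2 (-1.84, adjusted p = 0.064). Mobp, Mbp and Aspa were lower without overlap, where 24.1% of all genes were. These 3 comparisons and that of MCAO at 1 day share the 1-day sham arrays. Surgery, day and any handling common to the 1-day surgery arrays cannot be told apart here, and the labels give no batch.

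Markers of other cells moved with this difference. Of 12 measured endothelial markers 8 were higher after sham surgery than after saline, with Abcb1a (4.08), a drug efflux pump of brain capillaries, Cldn5 (3.85), the claudin of the blood-brain barrier, and Slco1a4 (3.42), an organic anion transporter. The summed endothelial intensity ran from 1752 to 10439 on MCAO arrays and from 3229 to 10940 on sham arrays of 1 day. In the other groups it lay between 1027 and 1249 (MCAO, 3 days), 804 and 994 (sham, 3 days), 618 and 773 (MCAO, 7 days), 638 and 751 (sham, 7 days), 684 and 1597 (LPS) and 537 and 861 (saline). Of 14 neuronal markers 5 were higher after sham surgery than after saline, among them the synaptic gene Snap25 (1.78), Stmn2 (1.87) and the neurofilament gene Nefl (1.44). The summed neuronal intensity ran from 3902 to 10484 on MCAO arrays and from 4339 to 13632 on sham arrays of 1 day, against 2118 to 7954 after saline. It lay between 2477 and 7687 (MCAO, 3 days), 3873 and 6007 (sham, 3 days) and 3240 and 4481 (MCAO, 7 days). For sham at 7 days it lay between 2674 and 3438, and for LPS between 1796 and 7363. Of these groups only sham at 7 days was free of overlap with the surgery arrays of 1 day. Of 13 microglial and macrophage markers 2 were higher, Csf1r (1.56) and Cx3cr1 (0.80), and of 14 astrocyte markers 2, Gjb6 (0.80) and Fgfr3 (0.64). At 3 and at 7 days, against 1 day, 7 of 12 endothelial markers were lower among sham arrays, and 2 and 3 of 14 neuronal ones were. Of the 14 astrocyte markers 2 were lower at 3 days, Gjb6 (-0.82) and Slc1a3 (-0.65), and 5 at 7 days, among them Gjb6 (-1.13), Fgfr3 (-0.92) and Slc1a3 (-0.72). Astrocyte markers that were lower without overlap numbered 5 at 3 days, where 17.2% of all genes were, and 11 at 7 days, where 24.1% were. The part of these cell types in the members' levels was not tested.

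**Figure D4:**
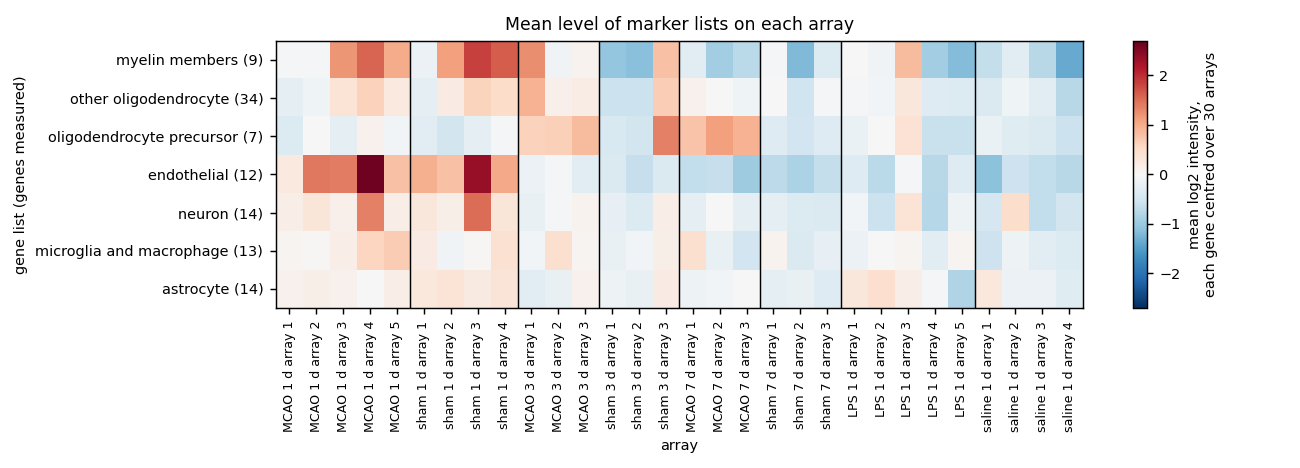
Mean log2 intensity of each marker list on every array, each gene centred on its mean over the 30 arrays, with arrays in columns by group and lists in rows. The endothelial list is highest on the 9 arrays of 1 day after surgery (0.26 to 2.63) and the member list runs from -1.36 (saline array 4) to 1.84 (1-day sham array 3).

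Within groups the members varied together from array to array. The deviation of a member from its group mean, set against the mean deviation of the other 8, correlated at r = 0.95 for Mog, 0.93 for Mag and Cldn11, 0.87 for Ermn, 0.82 for Opalin, 0.81 for Mbp and 0.78 for Mobp. It was lower for Cnp (0.69) and Aspa (0.64). These are descriptions over 30 arrays, each of which gave all members and shares its labelling and normalisation among them. Among 21 pairs of the 7 members other than Cnp and Aspa, r of deviations ran from 0.58 to 0.95 with a median of 0.74, and among 15 pairs with Cnp or Aspa from 0.41 to 0.76 with a median of 0.59. Across all arrays, group differences included, Cnp (0.30) and Aspa (0.35) followed the others little, whereas the remaining 7 had r between 0.77 and 0.94. For Cnp these correlations hold for the chosen probe set only. Its fold of sham surgery over saline was 0.18 there, and 0.54 and 1.52 on the other Cnp probe sets. Correlations of those probe sets were not taken.

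Outside the members, the genes most like their centred mean over the 30 arrays were Tspan2, a tetraspanin gene (r = 0.96), Mal, which encodes a membrane protein of myelin (0.95), the stathmin gene Stmn4 (0.93), Tppp, which encodes a tubulin polymerisation protein (0.91), and the sphingosine phosphate receptor gene S1pr5 (0.91). Mal read 6.09 on its lowest array and 12.71 on its highest.

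Of 40 other genes known from oligodendrocytes 34 were measured. At 1 day after MCAO 2 of them were higher, where 6.49% of all genes were, and 2 were lower, where 6.17% were. Higher were Nfasc, a cell adhesion gene of the node of Ranvier (1.32), and the small heat shock gene Cryab (1.10), and lower were Gamt, an enzyme of creatine synthesis (-0.97), and Plekhb1 (-0.73). Nfasc and Cryab are also known from other cells, astrocytes among them. The list's median was -0.05, as over all genes. At 3 days 0 were called by limma, where 0.674% of all genes were, and the median was 0.55 against 0.01 over all genes. An unadjusted p under 0.05 was found in 8, all with positive folds, and the share of all genes is not given here. The list's centred mean on the 3-day arrays was 0.94, 0.14 and 0.20 after MCAO. After sham surgery it was -0.58, -0.59 and 0.66, so the groups overlapped through sham array 3. At 7 days 0 were called and 2 had an unadjusted p under 0.05, with a median of 0.05 against -0.01 over all genes. The arrays of 12 of the 34 were higher without overlap at 7 days and those of 3 lower, where 16.3% of all genes were free of overlap in either direction, and at 3 days 2 were higher and 1 lower, where 12.7% of all genes were free of it. After LPS, when Gfap was higher as well (1.87), Nfasc alone of the 34 was called (1.83, limma's adjusted p = 9.15e-07), where 3.11% of all genes were. The list's median after LPS was 0.26 against 0.07 over all genes. Between sham surgery and saline 3 of 34 were higher, where 2.92% of all genes were. These were Tspan2 (2.67), Ndrg1 (2.47) and the lysophosphatidic acid receptor gene Lpar1 (1.27).

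Of 8 genes of oligodendrocyte precursors 7 were measured. At 1 day after MCAO the proteoglycan gene Vcan was higher (2.35), where 6.49% of all genes were. The channel subunit gene Cacng4 was lower (-1.12), where 6.17% were. At 7 days C1ql1 was higher (1.81), where 0.0254% of all genes were called. The arrays of 6 of the 7 were higher without overlap at 7 days, where 16.3% of all genes were free of overlap in either direction. At 1 day 1 was higher without overlap and 2 were lower, where 15.2% of all genes were lower without it. The summed intensity of the 7 precursor genes ran from 10272 to 12568 after MCAO and from 7634 to 8187 after sham surgery at 7 days. At 1 day the sum went the other way, from 9670 to 13731 after MCAO and from 14839 to 15459 after sham surgery. At 3 days the sums overlapped (8240 to 14110 after MCAO, 8178 to 16575 after sham surgery). Of the precursor markers' centred means at 3 days, sham array 3, on which the members were also high, had the highest (1.35).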

How the data were processed

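The authors deposited 1 intensity per probe set and array, normalised with RMA per the submitters' processing notes (version not given in the sources used here), as whole numbers from 9 to 35553 on the linear scale. Scanner files were not used here. Log2 of the deposited intensity was taken. Of 45037 probe sets, 34945 had 1 gene symbol, 932 several and 9160 none, and each gene was read from its probe set of 1 symbol with the highest mean. The filter (log2 5 on 3 arrays) left 15726 of 18193 genes.

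Groups follow the labels. limma 3.58.1 in R 4.3.3 fitted 1 linear model over 8 groups and moderated the variances (residual degrees of freedom 22, prior 4.55), so SE rest on a variance pooled over all groups. P-values are 2-sided and Benjamini-Hochberg adjusted over all genes of a contrast. The precision is limited by the number of arrays.

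Members and lists were chosen with earlier results of these data known. Besides the members, the text names called genes of the marker lists with the lowest adjusted p (at most 5 of the other oligodendrocyte genes and 3 of any other list), the 5 genes most correlated with the members' mean, and Aldh1l1. Of the listed marker genes, 8 were not used here, and Itgam did not pass the filter.

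Replicate numbers were checked as pairs through the correlation of deviations from group means over all genes. The description numbers gave 0.23, 0.19, 0.50 and 0.16 for the 4 pairs of 1 day after surgery and were taken to pair them. Title numbers gave -0.24 to 0.15 there. Alternatives were median centring, quantile normalisation, 2 other filters, other choices among probe sets, trended robust variances, array weights, blocks, the compared groups alone, arrays left out and, added after the data were seen, the range of the description numbers as a term for LPS and saline.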

Additional observations from a re-analysis of the deposited data

Results flagged for a closer look

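In the groups of 4 or 5 arrays, 36 sets of values were tested for an array standing apart from the rest of its group, and 2 were found, where chance alone gives about 1 in 20. Both lie on LPS array 3. Mog read 7.68 there, and its gap to the nearest LPS array was 0.794 of the range of the group. Aspa read 9.93 there, with a gap of 0.751 of the range. The mean of the 9 centred members was 0.86 on this array and lay between -1.18 and 0.00 on the other LPS arrays. Without array 3, the log2 fold of LPS over saline was -0.31 for Mog and -0.59 for Aspa, and 0 members were called.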

How the results depend on the processing

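Array number limits these results: groups hold 3 to 5 arrays, and members vary by up to 1.43 (within-group SD, Cldn11). Members called after MCAO at 1 day numbered 2, and 1 with quantile normalisation, without shared probe sets or with the compared groups alone, since Cnp lost its call (-0.52, -0.83 and -0.69). With 1 array left out they numbered 1 to 2. The replicate block of description numbers, which were taken to pair these arrays, kept both calls (Aspa -0.91, Cnp -0.57) and so did that of title numbers. At 3 days 1 was called (Mag) with array weights or without array 3 of both groups, and with array weights 1 (Mobp) for MCAO against LPS effects. For sham against saline the count of 4 became 2 with quantile normalisation or no filter, 8 with array weights, and 2 to 5 with 1 array left out. Ermn also lost its call in this comparison with the mean of probe sets (2.21, limma's adjusted p = 0.0616). For sham at 3 days against 1 day the count of 1 became 2 with median centring, the mean of probe sets or the compared groups alone, 9 with array weights, 4 without array 3 of both 3-day groups, and 1 to 3 with 1 array left out. At 7 days against 1 day the count of 2 became 5 with array weights, and 1 to 2 with 1 array left out. Aspa was also called there with the compared groups alone (-0.66, limma's adjusted p = 0.0128). The causes were not tested. Folds that changed sign were not called. At 1 day after MCAO these were Ermn (0.00 with the mean of probe sets, 0.29 with array weights, 0.06 with the description block) and Mag (0.15 with weights, 0.12 with that block). At 7 days they were Mobp (-0.14 with the mean of probe sets, 0.00 with weights) and Cnp (-0.04 with the mean). After LPS it was Cnp (0.28 with the mean, 0.21 without shared probe sets, 0.02 with weights). The 7-day against 1-day MCAO effect of Mog was -0.09 with the description block. Cnp gave -0.08 for sham against saline, 0.02 for sham at 3 days and 0.22 at 7 days against 1 day with quantile normalisation, and 0.07 for the last without shared probe sets. With 1 array left out, signs changed within these ranges. At 1 day after MCAO they were -0.50 to 0.22 for Mag, -0.60 to 0.72 for Cldn11, -0.85 to 0.40 for Ermn and -0.13 to 0.27 for Opalin. At 3 days they were -0.16 to 1.17 for Mobp and -0.23 to 0.07 for Aspa, and at 7 days -0.10 to 0.26 for Mobp and -0.45 to 0.52 for Cldn11. After LPS they were -0.05 to 0.46 for Mbp, -0.31 to 0.66 for Mog, -0.03 to 0.39 for Mag and -0.08 to 0.06 for Cnp. For MCAO against LPS effects Mag gave -0.71 to 0.01. For 7 days against 1 day Mog gave -0.20 to 1.01, Mag -0.70 to 0.20, Cldn11 -0.69 to 0.69 and Ermn -0.86 to 0.41, and for 7 against 3 days Mbp gave -0.75 to 0.49 and Mobp -1.07 to 0.25. The number range of the LPS and saline arrays as a term, chosen after seeing the data, left 0 members called for LPS against saline and for MCAO against LPS effects. Over the 4 comparisons with a control, 389 of 405 member values under the alternatives other than this range and left-out arrays kept direction and side of the threshold. Only Aspa and Cnp at 1 day after MCAO were called there in the main fit. Most of these values thus had little room to change side, and the count says little on the 2 calls. Title numbers did not pair the surgery arrays of 1 day by the check used. As blocks they moved no count of called members in the 4 comparisons.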
